A study of Homo sapiens with 6 samples.

Results

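RUNX1, RUNX2 and RUNX3 are DNA-binding transcription factors that share the Runt domain, and CBFB is the beta subunit that each of them takes up to form core-binding factor. Their transcripts were followed with the Affymetrix U133 Plus 2.0 array in MCF-10A, an immortalized breast epithelial line that is not transformed, through every probe set whose platform annotation gives 1 of these 4 symbols and no other. The rule found 11 probe sets, 6 for RUNX2, 3 for RUNX3 and 2 for CBFB, among 41091 probe sets with a single symbol and 54675 in all. It found 0 for RUNX1, because the 13 probe sets that carry this symbol carry it together with others, 3 symbols each, and no level of RUNX1 is given here. These genes were picked for the large increase of RUNX2 in the comparison described, so the values of the 11 probe sets are a description and carry no test. The 3 MBD2 arrays hold RNA of cells infected with a lentivirus, packaged in HEK293 cells, that carries MBD2, a protein that binds methylated CpG sites. The 3 control arrays hold RNA of MCF-10A cells in the same medium, which the labels describe as not infected and the study's methods as carrying the empty virus. The labels also call the 3 arrays of a group technical replicates, whereas the methods speak of biological ones, so every p-value below measures only the spread between these arrays, which may be technical.

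A RUNX factor binds DNA weakly when alone, and CBFB, which makes no contact with DNA itself, strengthens the binding and protects the factor from degradation. RUNX1 is required for definitive blood formation, RUNX2 for bone and RUNX3 for sensory neurons and T lymphocytes, and in mammary epithelium RUNX1 is the best known of the family while RUNX2 is linked to motile and bone-seeking breast cancer cells. Each RUNX gene has a distal and a proximal promoter, whose transcripts differ in their first codons, and the RUNX factors bind the letters ACCACA, or TGTGGT on the other strand, in their target genes and in their own distal promoters.

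The promoter windows of RUNX2 are shown first because RUNX2 is the member with the large difference and the deposited annotation does not say which promoter a probe set reads. Sequences are those of RefSeq on GRCh38.p14, 300 bases each, with 250 bases before the annotated start and 50 from it on, and the table used holds windows for RUNX1, RUNX2 and RUNX3 only. RUNX2 (gene ID 860) lies on the plus strand of chromosome 6 at chr6:45328330-45551082. In the distal window, chr6:45328080-45328379, capitals mark ACCACA, and in the proximal window, chr6:45422025-45422324, capitals mark CG.
RUNX2 distal window: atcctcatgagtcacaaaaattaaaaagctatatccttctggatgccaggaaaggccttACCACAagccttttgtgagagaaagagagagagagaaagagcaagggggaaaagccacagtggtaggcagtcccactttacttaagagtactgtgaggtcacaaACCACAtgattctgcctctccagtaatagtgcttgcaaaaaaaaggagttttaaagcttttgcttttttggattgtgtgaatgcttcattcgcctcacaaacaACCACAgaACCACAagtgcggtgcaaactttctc
RUNX2 proximal window: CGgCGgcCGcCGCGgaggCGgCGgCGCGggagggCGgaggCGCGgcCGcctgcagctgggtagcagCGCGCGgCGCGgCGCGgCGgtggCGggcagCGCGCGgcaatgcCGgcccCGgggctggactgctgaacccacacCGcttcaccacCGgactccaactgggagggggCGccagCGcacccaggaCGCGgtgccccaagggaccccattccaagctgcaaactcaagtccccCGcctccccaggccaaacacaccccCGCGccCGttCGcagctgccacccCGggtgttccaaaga
The distal window holds ACCACA 4 times, at positions -191, -87, 17 and 25 counted from the start as 1 with no position 0, and the variant ACCGCA 1 time on the other strand. Among 35116 windows of the same length, 13.1% hold ACCACA on either strand and 5 (0.0142%) hold it 4 or more times, while 7.29% hold ACCGCA. The proximal window holds neither. The windows also differ in CpG sites, with 2 in the distal window (42.7% G and C, the 11th percentile of all windows by CpG count) and 39 in the proximal window (76% G and C, percentile 91.3), against a median of 14 over all windows.

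The last pair of ACCACA in RUNX2 stands in a stretch of 18 bases that RUNX3 (gene ID 864, minus strand, chr1:24899511-24965138) shares. It is printed with 6 bases on each side, with the shared letters in capitals.
RUNX2, chr6:45328344-45328361: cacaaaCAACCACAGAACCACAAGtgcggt
RUNX3, chr1:24965126-24965143: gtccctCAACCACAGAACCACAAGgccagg
This stretch occurred in 2 of 35116 windows (0.0057%), those of RUNX2 and RUNX3, and ACCACA followed after 2 bases by ACCACA in 4 (0.0114%). The distal window of RUNX3 held 15 CpG sites and its proximal window 38. The only window listed for RUNX1 (gene ID 861, minus strand, chr21:34888650-34888949) held 40 CpG sites and no ACCACA. It lies inside the gene (chr21:34787801-35049302), far from the end where the gene starts. No distal window of RUNX1 was therefore searched, for ACCACA or for the shared stretch. A match of letters is a description of these windows, and binding and methylation were not measured on these arrays.

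The 6 arrays were not equally far from each other. Of 19775 genes, taken by their brightest probe set, 5 differed by over 2-fold between control arrays 1 and 2 and 95 between MBD2 arrays 2 and 3, whereas control array 3 differed from both other control arrays by that much in 1571 to 1572 genes and MBD2 array 1 from both other MBD2 arrays in 2565 to 2877. Values are log2 RMA values, in which 1 unit is a doubling. The MBD2 transcript was higher in every MBD2 array, at 12.17, 11.72 and 12.50 against 8.92, 9.03 and 9.68 in control arrays. In the fit across all genes (limma, called where the adjusted p was under 0.05 and the groups differed by at least 1.5-fold), 248 genes (1.25%) were called higher and 296 (1.5%) lower, 2.75% in all.

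RUNX2 was high in the MBD2 arrays through 1 probe set, 232231_at. Its values were 8.49, 7.67 and 7.59 in MBD2 arrays 1, 2 and 3 and 4.09, 4.18 and 3.63 in control arrays 1, 2 and 3. The lowest MBD2 array stood 3.41 above the highest control array. The means were 7.92 ± 0.50 in MBD2 arrays and 3.97 ± 0.29 in control arrays (SD, n = 3 each), a difference of 3.95, or 15.5-fold, which ranked 5th from the top among all 41091 probe sets. MBD2 array 1 was the highest, 4.52 above the control mean, and arrays 2 and 3 were 3.70 and 3.62 above it. Leaving out MBD2 array 1 gave a difference of 3.66, and leaving out control array 3 as well gave 3.50. The control values were close to those of the array's own probe sets for a bacterial transcript that was not added to the samples, which lay between 2.93 and 3.67 over 3 probe sets and 6 arrays. The lowest control array was 0.03 below the top of that range and the highest 0.52 above it, so background limits how large a fold this probe set could show.

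**Figure D1:**
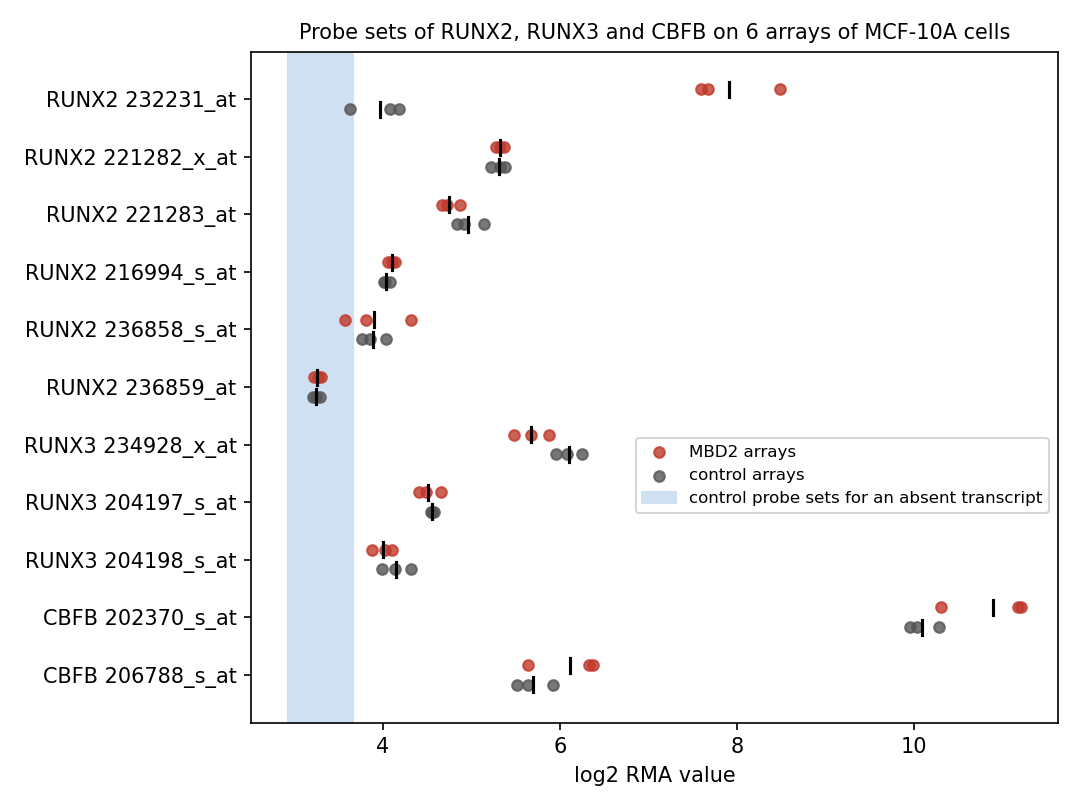
Log2 RMA values (horizontal axis) of the 11 probe sets of RUNX2, RUNX3 and CBFB, with the 3 MBD2 arrays in red above the 3 control arrays in grey, black ticks at group means and a blue band at the range of probe sets for an absent transcript (2.93 to 3.67). RUNX2 232231_at is the only row in which the groups stand over 1 unit apart, and CBFB 202370_s_at lies farthest to the right.

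The other 5 probe sets of RUNX2 did not separate the groups. Their values ran between 3.21 and 5.38 over all 6 arrays, their differences between -0.21 and 0.06, and in each of them the groups overlapped. The probe set 221282_x_at read 5.32, 5.28 and 5.37 in MBD2 arrays and 5.32, 5.38 and 5.23 in control arrays. The probe set 221283_at read 4.67, 4.73 and 4.87 in MBD2 arrays and 5.14, 4.92 and 4.84 in control arrays. Neither came near the change of 232231_at. The probe set 236858_s_at varied most within the MBD2 arrays, with 4.32, 3.82 and 3.58 against 4.04, 3.77 and 3.86 in control arrays. The probe set 236859_at stayed between 3.21 and 3.30 on all 6 arrays, inside the range of the absent transcript, and 216994_s_at between 4.02 and 4.14. The mean of all 6 probe sets was 0.64 higher in MBD2 arrays. The annotation used here gives symbols without positions on the transcript, so which RUNX2 transcripts each probe set can detect was not tested.

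Other genes whose probe sets disagreed in this way were counted, by a rule chosen after the values were seen. Of 5508 genes with at least 3 probe sets, 72 had a probe set at least 4-fold higher in MBD2 arrays, and in 15 of these (20.8% of the 72, 0.272% of the 5508) every other probe set differed by under 1.5-fold. RUNX2 is among the 15, with MBD2 itself, GNG2, LOXL2, ANPEP and ETV1.

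Over the 3 measured genes, 2 of 11 probe sets had every MBD2 array above every control array, 1 had every MBD2 array below and 8 overlapped. Over all 41091 probe sets these shares were 10.4% above and 12.3% below (22.7% in either direction), and the members were chosen from this same contrast, so nothing is read from the count.

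RUNX3, best known as a tumour suppressor of the stomach and a regulator of cytotoxic T cells, was not higher in MBD2 arrays on any of its 3 probe sets. The probe set 234928_x_at read 5.88, 5.67 and 5.49 in MBD2 arrays and 6.08, 5.96 and 6.26 in control arrays. The means were 5.68 ± 0.20 in MBD2 arrays and 6.10 ± 0.15 in control arrays (SD, n = 3 each), a difference of -0.42, and the groups lay apart by 0.08. The ending of this probe set's name marks probes that can match other transcripts. The probe set 204197_s_at read 4.65, 4.48 and 4.41 in MBD2 arrays and 4.55, 4.54 and 4.58 in control arrays, with overlap and a difference of -0.04. The probe set 204198_s_at read 3.88, 4.03 and 4.10 in MBD2 arrays and 4.13, 4.32 and 3.99 in control arrays, again with overlap.

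CBFB (gene ID 865, chr16:67029149-67101058), the shared beta subunit, was read by 2 probe sets that both averaged higher in MBD2 arrays. The probe set 202370_s_at read 10.30, 11.18 and 11.21 in MBD2 arrays 1, 2 and 3 and 9.95, 10.04 and 10.29 in control arrays 1, 2 and 3. The means were 10.90 ± 0.52 in MBD2 arrays and 10.09 ± 0.17 in control arrays (SD, n = 3 each), a difference of 0.80, or 1.75-fold. The groups were barely apart, since MBD2 array 1 stood only 0.02 above the highest control array. MBD2 array 1 was 0.21 above the control mean, while arrays 2 and 3 were 1.09 and 1.12 above it. Leaving out MBD2 array 1 gave a difference of 1.10, leaving out MBD2 array 3 gave 0.65, and leaving out MBD2 array 1 with control array 3 gave 1.20. The second probe set, 206788_s_at, had the same order of arrays within the MBD2 group, with 5.64, 6.33 and 6.37 against 5.92, 5.52 and 5.64 in control arrays. Here the groups overlapped, and the means of 6.11 ± 0.41 in MBD2 arrays and 5.69 ± 0.21 in control arrays (SD, n = 3 each) differed by 0.42.

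The division of the MBD2 arrays that CBFB showed was present in the hybridization controls, spiked transcripts added to each sample before it is put on the array. Their mean over 9 probe sets was 9.72 and 9.79 in MBD2 arrays 2 and 3, and 10.72 in MBD2 array 1, against 10.89, 11.09 and 10.81 in control arrays 1, 2 and 3. The part of this in the CBFB values was not tested. Within the MBD2 group RUNX2 232231_at ran opposite to CBFB, with its highest value on array 1, where the hybridization controls were also highest. The part of this in the RUNX2 values was not tested either.

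**Figure D2:**
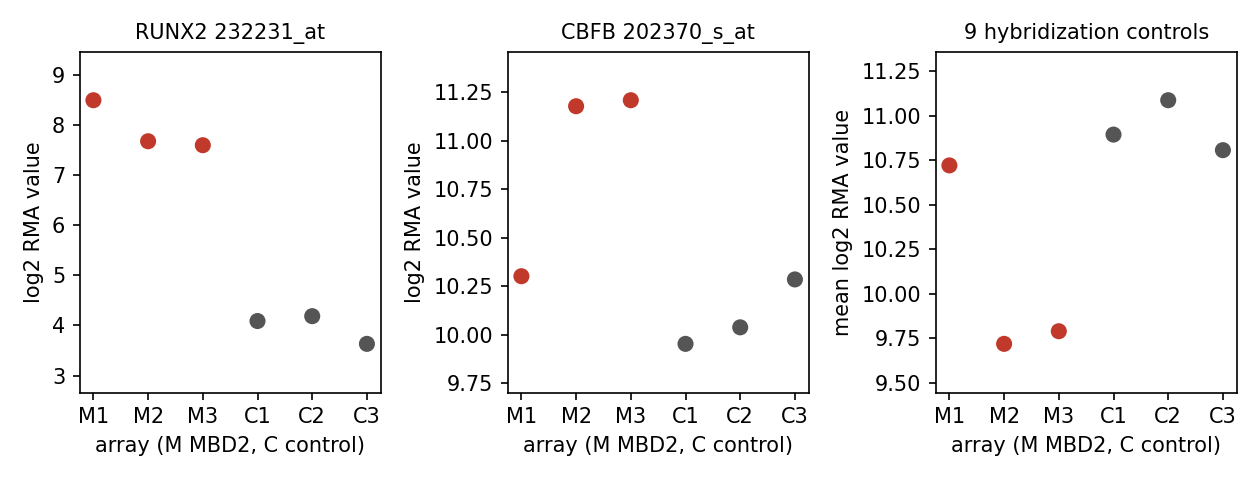
Log2 RMA values on each array (M1 to M3, MBD2, red, and C1 to C3, control, grey) of RUNX2 232231_at, CBFB 202370_s_at and the mean of 9 hybridization controls, each panel with its own vertical range that does not start at 0. RUNX2 is far above control on all 3 MBD2 arrays, CBFB mainly on arrays 2 and 3, the arrays on which the hybridization controls are low.

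The surroundings of RUNX factors were described through 7 lists of partners, modifiers, regulators and target genes, 136 genes in all, of which 125 were measured. In the fit across all 19775 genes, 2 were called higher, 1 lower and 122 neither. The median difference of the 125 was 0.00 (all genes, -0.02). At an unadjusted p under 0.05, 23 were higher and 10 lower, against 8.69% and 9.59% of all genes, and the groups lay apart in 23 higher and 20 lower genes, against 10.4% and 14.6% of all genes. With each array left out, the counts were 0 to 16 higher and 0 to 9 lower, and none of the 3 calls remained without MBD2 array 3, control array 1 or control array 2. Without MBD2 array 1 there were 16 higher and 9 lower, and without control array 3 there were 9 higher and 2 lower.

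Corepressors, which RUNX factors recruit through a short tail motif or their repression domains to silence genes, had 0 of 17 measured members called by limma, with a median of 0.04 and 1 gene, lower, at an unadjusted p under 0.05. TLE1, a Groucho-type corepressor that binds the tail of RUNX proteins, read 8.43, 8.54 and 8.54 in MBD2 arrays and 9.05, 9.23 and 8.81 in control arrays, a difference of -0.53 with an adjusted p of 0.116. Its 5 probe sets averaged gave -0.11 (adjusted p = 0.741). HDAC4, a deacetylase that restrains RUNX2 in cartilage, spanned 7.82 to 9.26 in MBD2 arrays and 7.35 to 8.27 in control arrays, and its difference of 0.36 (adjusted p = 0.736) was -0.11 without MBD2 array 1.

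Coactivators and DNA-binding partners also had 0 of 17 called by limma, with a median of 0.00, and unadjusted p-values were under 0.05 for 4 higher and 2 lower genes. WWTR1, the TAZ coactivator that joins RUNX2 at bone genes, read 9.06, 9.80 and 9.84 in MBD2 arrays and 7.80, 7.94 and 8.92 in control arrays, a difference of 1.35 with an adjusted p of 0.134. It passed without control array 3 (1.70, adjusted p = 0.0491) and without MBD2 array 1 (1.60, adjusted p = 0.0369). SMAD3, a TGF-beta effector that binds RUNX proteins, read 9.12, 9.32 and 9.42 in MBD2 arrays and 8.13, 8.10 and 8.75 in control arrays, a difference of 0.96 with an adjusted p of 0.081, and it passed without those same arrays (1.17, adjusted p = 0.0267, and 1.04, adjusted p = 0.0358). Averaged over all probe sets of each gene, WWTR1 differed by 0.83 (adjusted p = 0.167) and SMAD3 by 0.40 (adjusted p = 0.327).

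Among enzymes that modify RUNX proteins or mark them for degradation, 1 of 19 was called and the median was 0.16. Unadjusted p-values were under 0.05 for 3 higher genes and 1 lower gene. The largest difference was that of SMURF2, which was not called. It read 9.43, 9.98 and 10.82 in MBD2 arrays and 8.44, 8.41 and 7.81 in control arrays, a difference of 1.86 with an adjusted p of 0.0723. CDK6, a G1 kinase that binds RUNX1 and blocks its function in myeloid cells, was lower. It read 10.17, 10.54 and 10.46 in MBD2 arrays and 11.66, 11.87 and 11.36 in control arrays, with no overlap. The difference was -1.24 (SE 0.178, adjusted p = 0.0312). With an array left out its adjusted p lay between 0.0146 and 0.144 and was above 0.05 without MBD2 array 2 or 3 or control array 1 or 2, and its 7 probe sets averaged gave -0.58 (adjusted p = 0.145).

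Regulators that act on RUNX2 in the skeleton were the list with the 2 genes called higher. TWIST1, a basic helix-loop-helix factor that binds the Runt domain of RUNX2 and delays bone formation, read 8.07, 8.28 and 8.65 in MBD2 arrays and 6.69, 6.65 and 6.21 in control arrays. All 3 MBD2 arrays were more than 1 unit above every control array, and the difference was 1.81 (SE 0.207, adjusted p = 0.0168). TWIST2, its close relative with the same effect on RUNX2, read 7.71, 8.34 and 7.89 in MBD2 arrays and 6.39, 6.55 and 6.49 in control arrays, a difference of 1.5 (SE 0.179, adjusted p = 0.0187), or 0.89 (adjusted p = 0.0346) when its 2 probe sets were averaged. With an array left out, the adjusted p of TWIST1 lay between 0.00554 and 0.0942 and that of TWIST2 between 0.00521 and 0.11, both above 0.05 without MBD2 array 3 or control array 1 or 2, and that of TWIST1 also without MBD2 array 2. The other 13 measured members, among them FGF2, the BMP ligands and the DLX and MSX homeobox factors, were not called, and the median of the list was 0.03. Unadjusted p-values were under 0.05 for 6 higher genes of the 15, TWIST1 and TWIST2 among them, and 1 lower gene (all genes, 8.69% and 9.59%). FGF2 had the largest difference of the list, 2.36 with the groups apart (adjusted p = 0.0856). MSX1 differed by 1.24, also with the groups apart (adjusted p = 0.0759).

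Target genes were counted in 3 groups and no member of any was called by limma. The skeletal targets (0 of 19, median 0.02) had an unadjusted p under 0.05 for 4 higher and 3 lower genes. MMP13, the collagenase that RUNX2 activates in cartilage and bone, read 5.67, 5.07 and 5.03 in MBD2 arrays and 6.39, 6.77 and 8.50 in control arrays, a difference of -1.96 with an adjusted p of 0.15. SPARC, or osteonectin, read 11.81, 11.39 and 11.68 in MBD2 arrays and 10.27, 10.25 and 8.87 in control arrays, a difference of 1.83 with an adjusted p of 0.0838, which fell below 0.05 without control array 3 (difference 1.37, adjusted p = 0.0267). In the fit limited to probe sets with no ending for shared sequence, SPARC passed at 3.35 (adjusted p = 0.0415). Its 2 probe sets averaged gave 2.59 (adjusted p = 0.0551). In the values printed above, the groups of MMP13 and of SPARC were apart, in opposite directions.

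The osteoblast genes IBSP, SP7, DMP1 and ALPL lay between 3.32 and 5.41 on every array. PHEX, of the same list, read 4.98, 6.30 and 6.40 in MBD2 arrays and 5.08, 5.38 and 6.94 in control arrays, with overlap. SPP1, osteopontin, read 8.32, 6.69 and 6.56 in MBD2 arrays and 5.92, 5.71 and 4.58 in control arrays, a difference of 1.79 with an adjusted p of 0.188. Its highest value was on MBD2 array 1, as for RUNX2.

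Targets in blood cells (0 of 20, median -0.03) had an unadjusted p under 0.05 for 3 higher genes and 1 lower gene. CD36, a scavenger receptor whose gene RUNX1 regulates, read 5.12, 3.12 and 3.35 in MBD2 arrays and 7.77, 8.23 and 11.72 in control arrays, a difference of -5.38 with an adjusted p of 0.0789. It passed without control array 3 at -4.14 (adjusted p = 0.0462) and without MBD2 array 1 at -6.01 (adjusted p = 0.0286). ITGAE, the CD103 integrin that RUNX3 sustains in T cells, read 9.73, 10.61 and 10.42 in MBD2 arrays and 9.0, 9.18 and 8.86 in control arrays, a difference of 1.24 with an adjusted p of 0.0682, and it passed without MBD2 array 1 (difference 1.5, adjusted p = 0.0048).

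Targets in epithelial and cancer cells (0 of 18, median -0.20) had an unadjusted p under 0.05 for 3 higher genes and 1 lower gene. CCN2, a matricellular growth factor, read 9.40, 8.86 and 9.48 in MBD2 arrays and 7.57, 7.52 and 6.28 in control arrays, a difference of 2.13 with an adjusted p of 0.0537. Its call turned on small changes, with adjusted p-values of 0.0368 without MBD2 array 1 (2.05) and 0.0326 without control array 3 (1.71). CLDN1, a tight junction claudin, read 13.08, 11.02 and 11.34 in MBD2 arrays and 13.80, 13.66 and 13.40 in control arrays, a difference of -1.81 with an adjusted p of 0.161, and -2.44 (adjusted p = 0.00314) without MBD2 array 1.

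**Figure D3:**
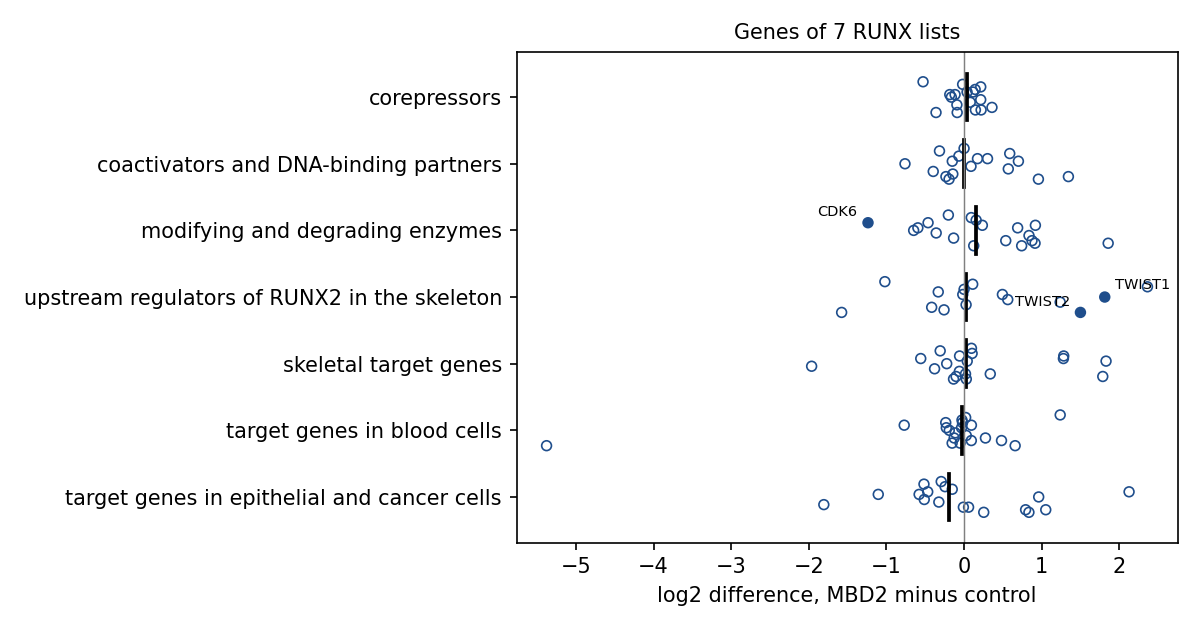
Log2 difference, MBD2 minus control, of the measured genes of 7 RUNX lists (1 point a gene, spread vertically for legibility), with black ticks at list medians and filled points for the called genes TWIST1, TWIST2 and CDK6. The medians lie between -0.20 and 0.16, and the point farthest left is CD36 at -5.38, which was not called.

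Markers of the labelled cell type and of others moved as follows. The basal mammary markers were present, 6 of 8 measured and all 6 above 8 on every array, with a log2 summed level of 14.9 to 15.2 in MBD2 arrays and 15.0 to 15.7 in control arrays. None of the 6 was called by limma, but 3 had lower means in MBD2 arrays at an unadjusted p under 0.05 and 0 higher ones, and the median difference was -0.49. The 3 were KRT5, a basal keratin (difference -1.26, adjusted p = 0.145), CDH3, or P-cadherin (-1.14, adjusted p = 0.234), and KRT14, the keratin that pairs with KRT5 (-0.56, adjusted p = 0.209). ITGB4 went the other way, with its groups just apart (difference 0.81, adjusted p = 0.414). LAMB3 was also higher on average (0.61) and EGFR lower (-0.41), both with overlap. The luminal list (7 of 8 measured) had summed levels of 11.0 to 12.1 in MBD2 arrays and 10.5 to 10.9 in control arrays, with KRT8 called higher (difference 2.02, adjusted p = 0.0397, and 0.0139 to 0.159 with an array left out). Its partner keratin KRT18 differed by 1.66 (adjusted p = 0.194), while GATA3, ESR1, KRT19, FOXA1 and PGR differed by -0.51 to -0.02, each with overlap, and the median of the list was -0.05. The fibroblast list (8 of 8) had summed levels of 13.2, 11.0 and 10.6 in MBD2 arrays 1, 2 and 3 and 10.9, 10.9 and 10.2 in control arrays 1, 2 and 3. It was thus far higher on MBD2 array 1 alone, the array with the highest RUNX2 value, through DCN (12.57 there, against 7.59 and 8.54 on MBD2 arrays 2 and 3), LUM (9.63, against 4.03 and 6.27) and COL3A1 (8.90, against 4.99 and 4.92), which code for matrix proteins. In control arrays DCN read 9.74, 9.60 and 8.43 and LUM 7.48, 8.03 and 7.08. LUM on MBD2 arrays 2 and 3, and DCN on MBD2 array 2, were thus below every control array. COL1A1, which is also on the skeletal target list, was not limited to array 1. It read 10.60, 10.61 and 9.75 in MBD2 arrays and 9.35, 9.07 and 8.69 in control arrays, a difference of 1.28 (adjusted p = 0.0918). Its 5 probe sets averaged gave 0.34 (adjusted p = 0.329). The fibroblast list had its groups apart in 1 higher and 1 lower gene, with a median of 0.22. The osteoblast list (6 of 7) ran from 8.02 to 8.75 in MBD2 arrays and 7.48 to 7.93 in control arrays. The higher osteoblast sum rests on SPP1, since without it the list ran from 6.80 to 7.42 in MBD2 arrays and 6.98 to 7.79 in control arrays. IBSP, the bone sialoprotein gene, had its groups apart the other way, with a difference of -0.38 (adjusted p = 0.177). The leukocyte list (6 of 8) ran from 8.50 to 9.16 in MBD2 arrays and 10.2 to 11.0 in control arrays through CD14, called lower (difference -3.07, adjusted p = 0.0416, and 0.00373 to 0.173 with an array left out), while the defining gene PTPRC lay between 3.50 and 4.03 on all arrays. The list of the HEK293 packaging cells (8 of 8) ran from 7.53 to 7.82 in MBD2 arrays and 7.67 to 7.75 in control arrays. With a single array left out, KRT8 and CD14 kept their calls only without MBD2 array 1. The part of these marker lists in the RUNX2 and CBFB values was not tested. In such bulk RNA fewer cells of a type and less RNA per cell cannot be told apart.

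The genes beside the members were read to see whether neighbours on the chromosome moved with them. The RUNX genes have neighbours that are themselves related, a CLIC chloride channel gene and an RCAN calcineurin regulator near each. Of the 40 nearest measured protein-coding genes, 5 on each side of each member, 1 was called higher and 0 lower by limma, near the 2.75% of all genes called. Unadjusted p-values were under 0.05 for 7 higher and 3 lower ones (all genes, 8.69% and 9.59%), and their differences ran from -1.42 to 1.37. Beside RUNX2, 0 of 10 were called, and 1 higher and 1 lower gene had an unadjusted p under 0.05. SUPT3H, a transcription cofactor gene that overlaps the RUNX2 locus, read 6.40, 6.98 and 6.95 in MBD2 arrays and 6.04, 6.09 and 6.16 in control arrays. Its groups were apart and its difference was 0.68 (adjusted p = 0.124), which passed without MBD2 array 1 at 0.87 (adjusted p = 0.00745). On its probe set with no ending for shared sequence the difference was 0.16 (adjusted p = 0.481), and its 2 probe sets averaged gave 0.42 (adjusted p = 0.114). On the other side CLIC5 differed by -0.17, with overlap, and farther out ENPP4 by 1.18 (adjusted p = 0.299) and CYP39A1 by -1.42 (adjusted p = 0.173).

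Near RUNX3 the called neighbour was STPG1, with 7.06, 6.97 and 7.02 in MBD2 arrays and 6.15, 6.41 and 6.39 in control arrays, a difference of 0.70 (adjusted p = 0.0402). Its adjusted p with an array left out lay between 0.0245 and 0.181, and it was under 0.05 only without MBD2 array 1. Centring the arrays on housekeeping genes gave 0.57 (adjusted p = 0.121), and the 2 probe sets of STPG1 averaged gave 0.34 (adjusted p = 0.265). CLIC4, next to RUNX3, differed by 0.60 (adjusted p = 0.0677), and by 0.59 (adjusted p = 0.0425) without MBD2 array 1, and RCAN3 by 0.32 (adjusted p = 0.634). Near RUNX1, CLIC6 differed by -0.13 and RCAN1 by -0.73 (adjusted p = 0.58), with overlap in both. RCAN1 was -1.41 (adjusted p = 0.0273) without MBD2 array 1. RCAN2 of the RUNX2 region differed by 0.26, with overlap. Of these CLIC and RCAN genes, none was called with all 6 arrays.

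**Figure D4:**
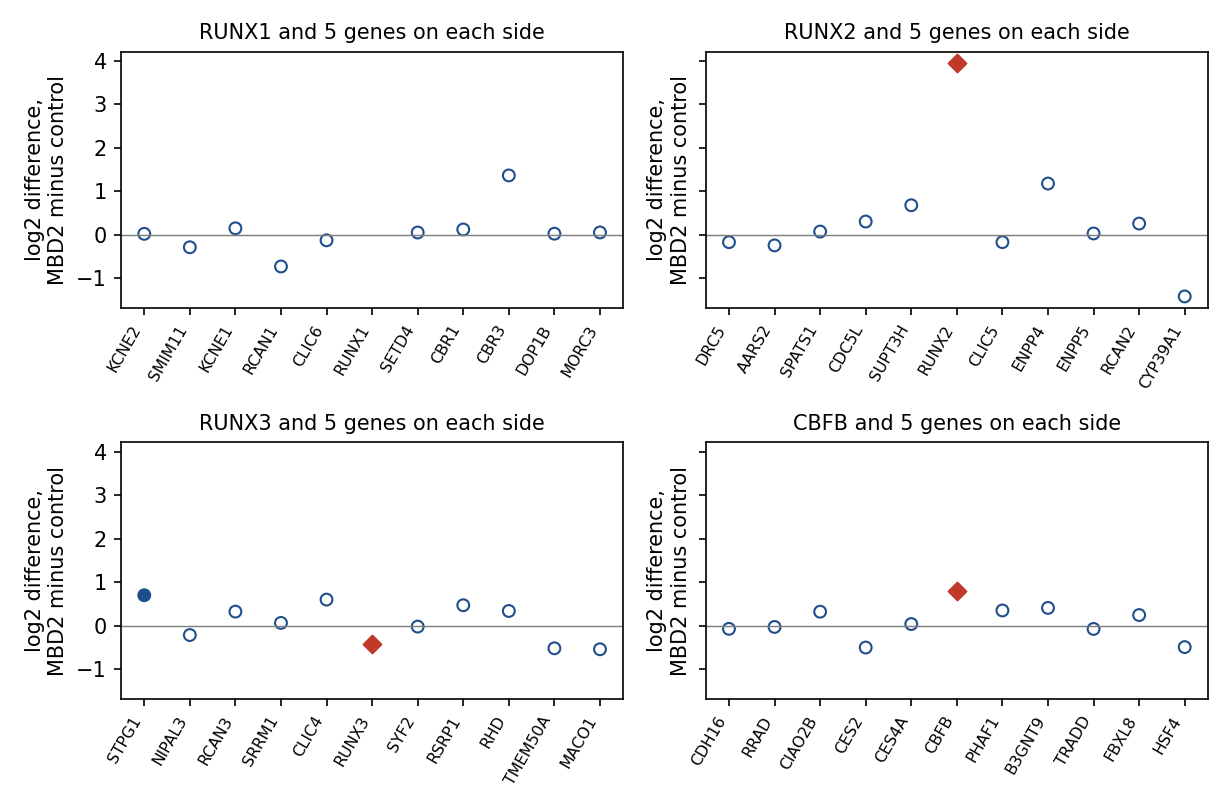
Log2 difference, MBD2 minus control, of the 5 nearest measured genes on each side of RUNX1, RUNX2, RUNX3 and CBFB in chromosome order (blue circles, filled where called), with the member itself as a red diamond (RUNX2 232231_at, RUNX3 234928_x_at and CBFB 202370_s_at, and none for RUNX1). RUNX2 stands at 3.95 while its 10 neighbours lie between -1.42 and 1.18.

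The genes most like RUNX2 232231_at over the 6 arrays were found by Pearson's r among 4433 genes with an SD of at least 0.5 over the arrays. With 6 points in 2 groups, r mostly follows the difference between the groups, and it is given as a description. TTLL7, a tubulin glutamylase, had r = 0.993. PTPN21, a tyrosine phosphatase, had 0.992. CXCL2, a chemokine that attracts neutrophils, had 0.991, GNG2, a G protein gamma subunit, had 0.99 and ASAP1, a GTPase-activating protein for ARF, had 0.989. Their differences were 1.51, 1.27, 1.66, 3.57 and 1.38 in that order, each called higher, with adjusted p-values between 0.00562 and 0.0155, and each lost its call without control array 1 or control array 2 (adjusted p between 0.0531 and 0.0944). TTLL7, PTPN21, CXCL2 and GNG2 also lost it without MBD2 array 3, and GNG2 without MBD2 array 2. GNG2 was the nearest to RUNX2 in size, with 9.02, 8.59 and 8.31 in MBD2 arrays and 5.63, 5.18 and 4.41 in control arrays, and both had their highest value on MBD2 array 1 and their lowest on control array 3. For CXCL2 the difference was -0.08 on the probe set with no ending for shared sequence, and for GNG2 it was 0.11. With all probe sets of a gene averaged, PTPN21 (0.52, adjusted p = 0.0583) and CXCL2 (0.58, under 1.5-fold) lost their calls. TTLL7 (1.27), ASAP1 (1.05) and GNG2 (0.93) kept theirs.

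**Figure D5:**
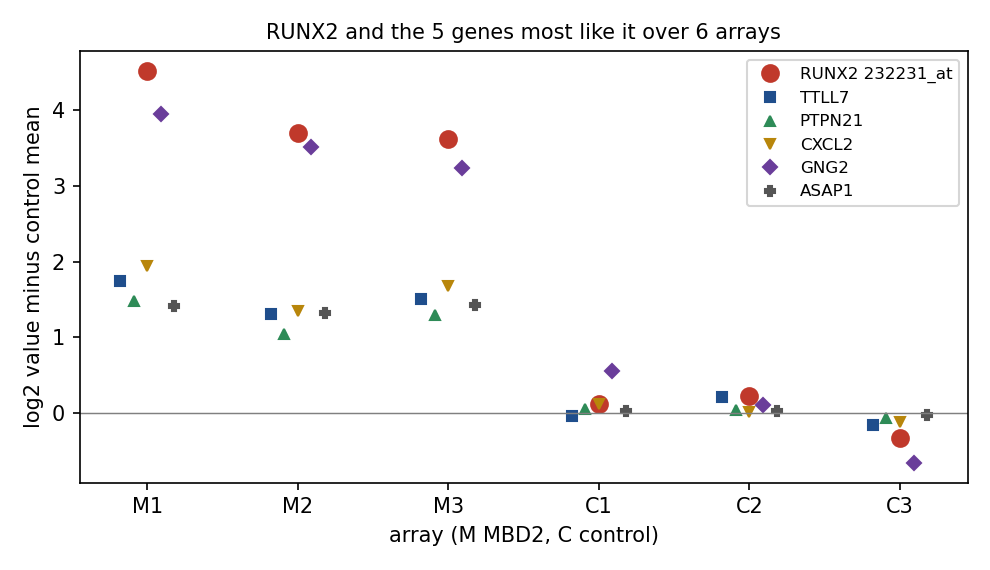
Log2 value minus the control mean on each array (M1 to M3, MBD2, and C1 to C3, control) for RUNX2 232231_at (red circles) and the 5 genes most like it, shifted sideways for legibility. GNG2 follows RUNX2 most closely in size, and TTLL7, PTPN21, CXCL2 and ASAP1 show differences of 1.27 to 1.66.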

How the data were processed

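RNA of MCF-10A was hybridized to 6 Affymetrix U133 Plus 2.0 arrays, 3 MBD2 and 3 control, as the labels assign them. For each probe set the authors deposited a log2 value on every array, made with RMA in the affy package per the submitters' processing notes, whose versions are not given in the sources used here. RMA corrects background, equalizes the arrays' distributions and summarizes the log2 values of the probes of a probe set in a single value, which compresses changes of dim transcripts. The number of arrays limits the precision.

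Probe sets were named from the platform table, symbols were updated through RefSeq (19735 of 19777 gene identifiers matched), and the 1801 probe sets with several symbols, the 11721 with none and 62 spike-in or control ones did not enter the fit. Each gene was represented by its probe set with the highest mean, 9252 of 19775 having a single probe set. Groups were compared with limma 3.58.1 under R 4.3.3, a linear model of group moderated by eBayes, with Benjamini-Hochberg adjustment over 19775 genes. Differences are MBD2 minus control on the log2 scale. The fit was tested on simulated data. Members, lists and alternatives were chosen with earlier results of these data known. Named genes were every member probe set, MBD2, up to 5 called genes a direction of each list or, where none was called, the 2 with the largest difference, the CLIC and RCAN genes with SUPT3H, and the 5 genes most correlated with RUNX2. Other genes were named after their values were seen: SP7, DMP1, ALPL, PHEX, PTPRC, KRT14, ITGB4, LAMB3, EGFR, KRT18, KRT19, GATA3, ESR1, FOXA1, PGR, DCN, LUM, FGF2, MSX1, SMURF2, ENPP4, CYP39A1, LOXL2, ANPEP and ETV1. Likeness to RUNX1 was not computed. Promoter windows were searched on both strands with Python 3.11.15.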

Additional observations from a re-analysis of the deposited data

How the results depend on the processing

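The difference of RUNX2 232231_at was 3.66 to 4.11 with each array left out and 3.50 without control array 3 and MBD2 array 1 together. This probe set was picked for its increase, and with its groups this far apart leaving out arrays could not turn the sign. These values therefore only describe its size. The mean of the 6 RUNX2 probe sets differed by 0.64, which rests on 232231_at, since the other 5 differed by -0.21 to 0.06. Genes called higher (248) and lower (296) numbered 12 and 51 with a replicate block, 0 and 0 with near-identical arrays averaged (1507 at an unadjusted p under 0.05), 3299 and 2110 without control array 3 and MBD2 array 1, and 2 to 1903 and 17 to 1123 with each array left out. The methods' rule on fold alone asks for every MBD2 array over 1.5 times, or under 0.5 times, the control mean, and gave 687 higher and 357 lower. Its cutoff for lower genes is the stricter on the log2 scale, so the higher and lower counts by this rule cannot be compared with each other. The RUNX lists, with 2 higher and 1 lower, had 4 and 0 with the mean of all probe sets, 4 higher with probe sets that have no ending for shared sequence, 0 and 0 with the replicate block, 0 and 0 with near-identical arrays averaged, 32 and 14 without control array 3 and MBD2 array 1, 16 and 3 by the methods' rule, and 0 to 16 and 0 to 9 with each array left out. Centring on housekeeping genes gave 193 higher and 371 lower (65.8% lower, against 54.4%) and moved the median of all genes to -0.15. Signs turned for uncalled HDAC4 (-0.41 without control array 3 and MBD2 array 1, and -0.11 to 0.61 with each array left out), COL3A1 (-0.15 with no-ending probe sets, -0.29 without control array 3 and MBD2 array 1, and -0.16 to 1.84 with each array left out) and RCAN1 (0.00533 with no-ending probe sets), and for CXCL2 (-0.076 with no-ending probe sets). The causes were not tested. The deviations of arrays with the same replicate number correlated at 0.167, -0.273 and 0.215. These values cannot decide whether the numbers pair the arrays, because control arrays 1 and 2, and MBD2 arrays 2 and 3, were nearly alike. Probe sets near the level of an absent transcript limit what RUNX2 could show in the control arrays.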
